A study of Mus musculus with 10 samples.

Results

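The 10 genes described here belong to the interleukin-2 (IL-2) axis and were followed in mouse CD8 T cells held in low glucose with or without acetate. They are the cytokine genes Il2 and Il21, the receptor genes Il2ra, Il2rb, Il2rg and Il15ra, the kinase gene Jak3, the transcription factor genes Stat5a and Stat5b, and the inhibitor gene Cish. The list was fixed by name, and all 10 were found among the 53465 genes of the count files. Polyadenylated RNA came from CD8 T cells of C57BL/6 OT-I mice, whose transgenic receptor sees an ovalbumin peptide. All cells were activated with that peptide in 25 mM glucose, given rhIL-2 at 100 U/ml, and moved to 1 mM glucose after 3 days. The 4 groups were d9 with 5 mM sodium acetate (n = 3), d9 without acetate (n = 3), d5 with 5 mM acetate (n = 2) and d5 without acetate (n = 2). Restriction lasted 120 h at d9 and 24 h at d5, acetate was present for the last 1 day only, and every group was restimulated for 4 h with the phorbol ester PMA and ionomycin. The labelled d5 and d9 are used as names only, since 3 days of activation with 1 or 5 days of restriction do not add up to them. Time since activation and time in low glucose both differ between d9 and d5 and cannot be told apart, and cells kept in 25 mM glucose were not analysed here. No label says that libraries of a group came from separate cultures or mice, and a p-value here speaks only of how much these libraries vary, which may be technical.

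IL-2 is made by T cells after antigen receptor stimulation, when calcineurin, NFAT, AP-1 and NF-kB factors act on the Il2 promoter, and PMA with ionomycin drives the same factors. It binds a receptor built from an alpha chain (Il2ra, CD25), a beta chain (Il2rb, CD122) and the common gamma chain (Il2rg), in which beta and gamma carry the signal and alpha raises the affinity. JAK3 sits on the gamma chain and, with JAK1, phosphorylates STAT5A and STAT5B, which enter the nucleus and turn on genes such as Cish, whose product damps the pathway. In CD8 T cells the axis is known for driving expansion and effector differentiation, and IL-15, presented by the IL-15 receptor alpha chain, signals through the same beta and gamma chains. IL-21, made mainly by CD4 helper T cells, uses the gamma chain with a receptor of its own.

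The promoters of Il2 and Il21 are shown because these neighbouring genes had very different levels, and that of Cish because it is a classical STAT5 target. RefSeq windows on GRCm38.p6, from 250 bases before to 50 bases after the annotated start, were matched for 9 of the 10 genes. The Il2 window lies at chr3:37125905-37126204 and the Il21 window at chr3:37232587-37232886, both on the minus strand. In these sequences, written 5′ to 3′, capitals mark GGAAA on either strand, the core letters that NFAT proteins bind. No TGANTCA, the letters of an AP-1 site, was found in either.
Il2 promoter: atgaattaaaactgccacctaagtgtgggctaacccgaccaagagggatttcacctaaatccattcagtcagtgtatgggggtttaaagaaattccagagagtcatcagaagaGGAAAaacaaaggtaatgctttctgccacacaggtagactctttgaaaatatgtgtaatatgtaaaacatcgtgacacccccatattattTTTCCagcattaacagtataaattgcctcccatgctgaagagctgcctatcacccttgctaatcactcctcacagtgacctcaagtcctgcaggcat
Il21 promoter: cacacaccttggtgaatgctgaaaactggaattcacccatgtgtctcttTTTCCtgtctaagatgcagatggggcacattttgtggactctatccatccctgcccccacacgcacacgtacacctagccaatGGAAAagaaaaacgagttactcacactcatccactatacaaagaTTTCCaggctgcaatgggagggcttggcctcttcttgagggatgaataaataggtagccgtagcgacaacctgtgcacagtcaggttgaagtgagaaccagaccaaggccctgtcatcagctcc
The GGAAA matches begin at -137 and -47 in the Il2 window and at -201, -118 and -74 in the Il21 window, counted from the RefSeq start with -1 as the base before it. Of 32851 windows of 300 bases, 26.7% hold at least 2 such matches and 9.415% at least 3, while 7.81% hold TGANTCA. The Cish window lies at chr9:107296409-107296708 on the plus strand, with capitals marking TTCNNNGAA, the letters of a STAT site.
Cish promoter: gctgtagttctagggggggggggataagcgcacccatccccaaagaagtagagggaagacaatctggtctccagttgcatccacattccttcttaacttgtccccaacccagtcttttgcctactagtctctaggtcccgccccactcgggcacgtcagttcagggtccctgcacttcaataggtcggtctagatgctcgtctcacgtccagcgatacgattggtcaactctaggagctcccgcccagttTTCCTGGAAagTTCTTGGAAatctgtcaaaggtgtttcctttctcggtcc
Its 2 matches begin at positions 1 and 12, the first base of the RefSeq transcript being position 1, and overlap GGAAA letters on one strand or the other. At least 1 match is held by 8.3% of all windows and at least 2 by 0.457%. GENCODE M21 places the start of Cish further upstream, at position 107296026 of chromosome 9, so these positions hold for the RefSeq start. Letters that match a motif are a description and say nothing of binding in these cells.

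Total counts were 22.97 to 24.66 M in the d9 libraries and 16.59 to 17.97 M in the d5 libraries. Levels are given as CPM, counts scaled to library size with TMM factors, and CPM per kb of annotated exon is used where genes are set beside each other. Changes are log2 fold changes ± SE from edgeR's quasi-likelihood test over 13182 genes, called past a Benjamini-Hochberg adjusted p of 0.05. The summed CPM of 9 CD8 T cell markers was 2747 to 3265 in the d9 acetate libraries, 2871 to 2977 in the d9 libraries, 2589 to 2676 in the d5 acetate libraries and 2259 to 2380 in the d5 libraries. Cd4 and Foxp3, which define helper and regulatory T cells, averaged at most 1.31 and 0.109 CPM in a group. At d9, acetate replicate 2 and replicate 1 of the group without acetate stood apart on the second principal component (-26.1 and -19.9, against 2.2 to 21.8 in the other d9 libraries). Ribosomal protein genes took 15.1% and 15.4% of their counts, and 11.2 to 12.7% elsewhere at d9. Results that turn on these 2 d9 libraries are given with and without them. On the same component the d5 acetate libraries lay at -16.4 and -32.9, and the d5 libraries without acetate at 18.2 and 29.2. Ribosomal protein genes took 11.9% and 14% of counts in the former and 12% and 10.8% in the latter. At d5, acetate and position on this component cannot be told apart. Summed B cell markers, mostly Ighm, were 85.6 to 119 and 78.6 to 102 CPM in the d9 acetate and d9 libraries and 200.1 to 209 and 142 to 173 CPM in the d5 acetate and d5 libraries. Summed dendritic cell markers, mostly Ccr7, Zbtb46 and Cd74, were 226 to 510 and 219 to 246 CPM, against 150.1 to 199 and 128 to 171 CPM, in the same order, with Siglech at 0 throughout. Of 5 tested, 3 rose and 1 fell at d9 with acetate, and 2 rose and 0 fell without. Of all tested genes, 18.5% rose and 23.1% fell with acetate, and 15.9% and 21.2% without. Cd74 was the one that fell, averaging 17.7, 29.3, 42.9 and 43.4 CPM in the same order (log2 -1.275 with acetate, edgeR adjusted p = 0.00828). Zbtb46 averaged 84.7, 65.9, 29.0 and 19.9 CPM and rose in both acetate states (log2 1.54 with and 1.73 without, edgeR adjusted p = 0.000149 and 8.4e-05). H2-Ab1 averaged 21.4, 23.3, 10.2 and 3.64 CPM and also rose in both (log2 2.67 without acetate, edgeR adjusted p = 0.000628). Ccr7 rose with acetate (log2 1.51, edgeR adjusted p = 0.0141). The part of these other cell types in the results was not tested.

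Il2ra, Il2rb and Il2rg were among the 4 most abundant transcripts of the axis in every group, joined at d5 by Il2, and Il21 was all but undetected. On the scale of CPM per kb, Il2rb stood highest in both d9 groups, at 259 ± 49.9 with acetate and 224 ± 15.8 without (SD, n = 3 each). At d5 Il2 itself headed the order with acetate, at 185 ± 15.8 CPM per kb, and Il2ra without it, at 223 ± 18.8 (SD, n = 2 each). Within a group, the spreads of Il2ra and Il2rg overlapped at d9 in both acetate states. At d5 with acetate the spread of Il2rb (161 ± 13.7) overlapped those of Il2, Il2ra and Il2rg. At d5 without acetate that of Il2 overlapped those of Il2rg (162 ± 6.84) and Il2rb (117 ± 14.3). The leading genes were not clear of the next at d9 with acetate, where Il2rb overlapped Il2ra (179 ± 35.8), or at d5 without it, where Il2ra overlapped Il2 (156 ± 57.2). Stat5a followed at 87.7, 84.5, 53.1 and 49.2 CPM per kb in the d9 acetate, d9, d5 acetate and d5 groups, and lay above Stat5b, Jak3 and Cish in every group. Il15ra lay far lower, at 6.38, 5.54, 3.76 and 3.34 CPM per kb in the same groups.

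**Figure D1:**
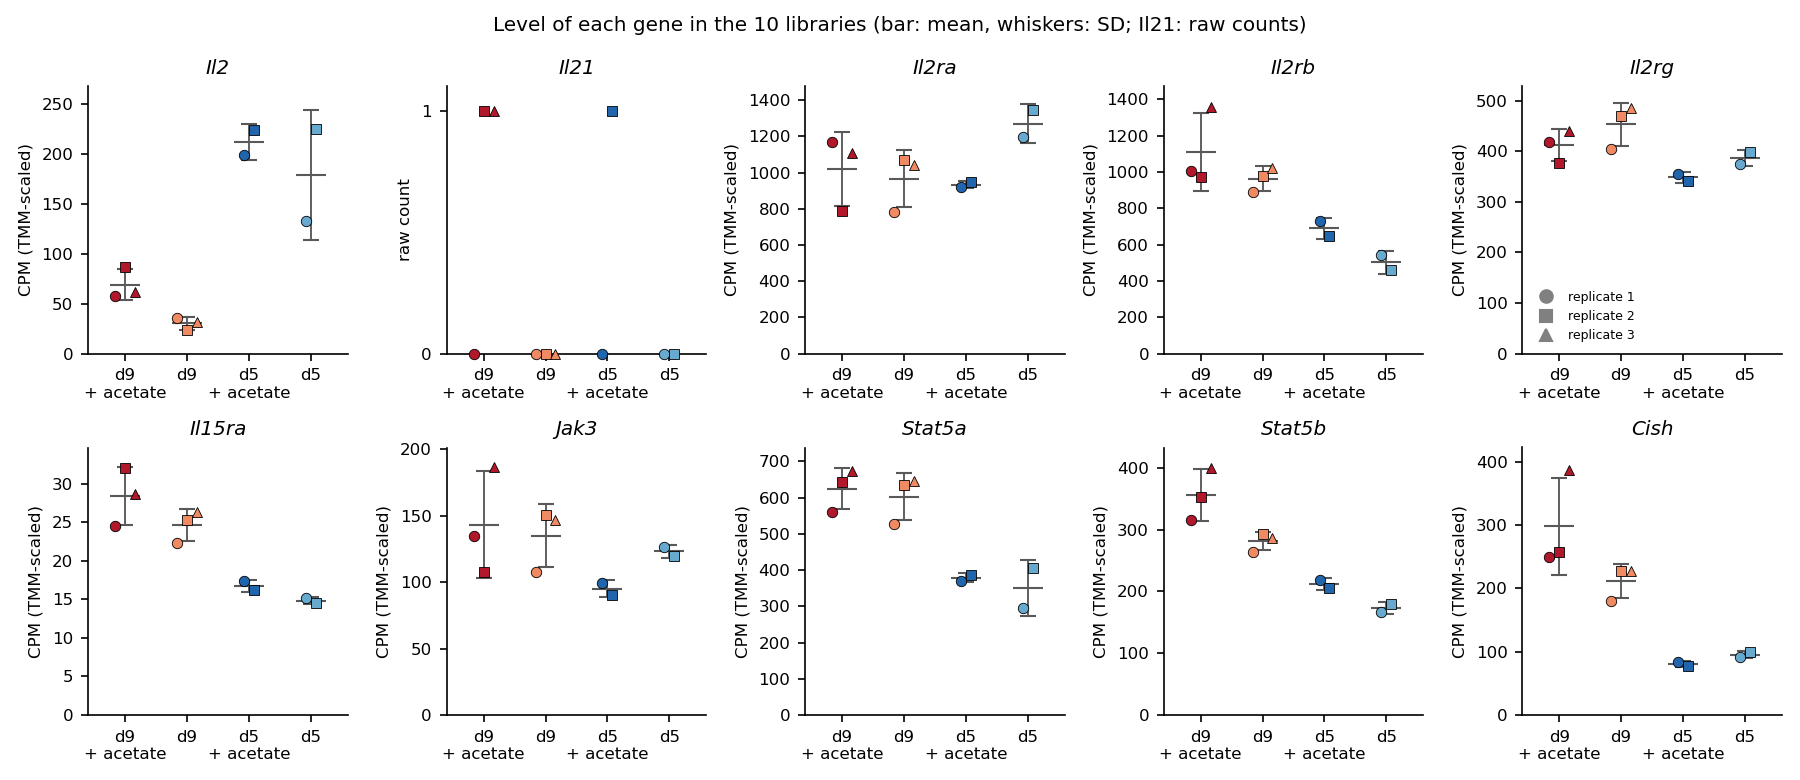
Level of each of the 10 genes in every library, by group, on linear axes from 0. Points are single libraries in TMM-scaled CPM, with bars for the mean and whiskers for the SD; Il21 is shown as raw counts, 1 in each of 3 libraries and 0 elsewhere. Il2 is lower in every d9 library than in any d5 library, and Il2rb, Il15ra, Stat5a, Stat5b and Cish are higher.

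Between d9 and d5 Il2 was called lower, and each other member that was called was higher. Il2ra and Il2rg were not called in either acetate state, nor was Jak3 without acetate. Without acetate, Il2rb, Il15ra, Stat5a, Stat5b and Cish rose and Il2 fell, 6 of the 9 genes tested, where 37.1% of all tested genes were called. With acetate the same 6 genes passed in the same directions and Jak3 was also called higher, 7 of 9, where 41.6% of all tested genes were called. Il21 had too few counts to be tested, while each of the other 9 had at least 249 counts in every library. The median log2 fold change over the 9 was 0.70 without and 0.69 with acetate, beside -0.01 over all tested genes in each. Groups did not overlap for 6 higher and 2 lower genes without acetate, where 29.7% and 33.4% of all tested genes did so and 63.1% in either direction. With acetate they did not overlap for 7 higher and 1 lower, where 29.1% and 33.4% did so and 62.5% in either direction, so this count of 8 of 9 has a high background. Acetate itself moved none of the 9 past the threshold, at d9, where 0.0303% of all tested genes were called, or at d5, where 1.52% were. At an unadjusted p under 0.05, edgeR gave 3 of the 9 for acetate at d9 (Il2, Stat5b and Cish), where 15.4% of all tested genes did so, and 1 at d5 (Il2rb), where 19.8% did. DESeq2 called 1 of the 9 at d9, Il2, where it called 2.54% of all tested genes, and none at d5, where it called 5.96%. The d9 libraries are shared between the acetate comparison at d9 and the day comparisons, as the d5 libraries are at d5.

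**Figure D2:**
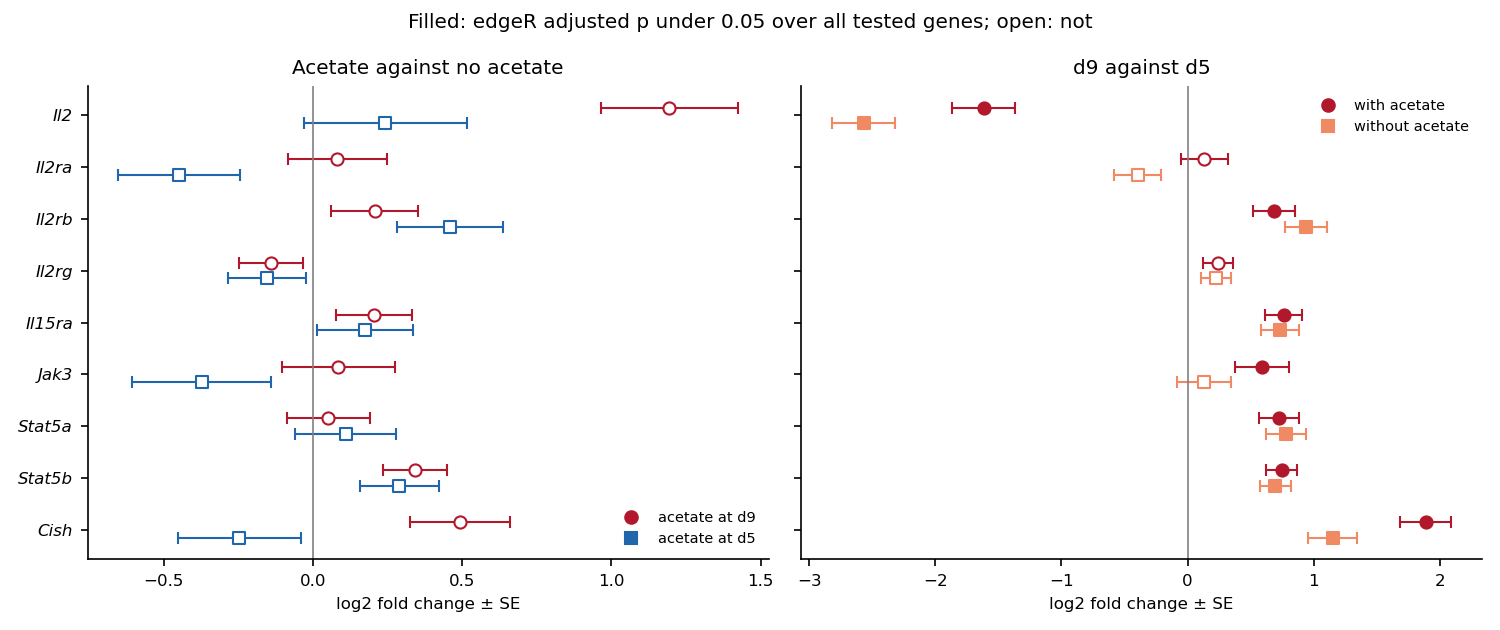
Log2 fold change ± SE of the 9 tested genes for acetate against no acetate (left) and for d9 against d5 (right), filled where the edgeR adjusted p over all tested genes was under 0.05. All acetate points are open, while Il2 lies at -1.62 with and -2.57 without acetate in the day comparison and Cish at 1.89 and 1.15.

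Il2, the T cell growth factor, was the member called lower at d9 than at d5. Its level was 58.0, 86.9 and 61.9 CPM in the d9 acetate libraries, 35.4, 23.1 and 31.9 CPM in the d9 libraries, 199 and 224 CPM in the d5 acetate libraries, and 133 and 225 CPM in the d5 libraries. No d9 library reached the lowest d5 library, and every d9 acetate library lay above every d9 library without acetate. At d5 the acetate libraries lay within the range of those without it. Against d5, Il2 was 5.94-fold lower at d9 without acetate (log2 -2.57 ± 0.25; edgeR adjusted p = 4.35e-05) and 3.07-fold lower with acetate (log2 -1.62 ± 0.25; edgeR adjusted p = 0.000579). Both calls held in all 19 alternatives. The acetate change at d9 was 1.19 ± 0.23 on the log2 scale and did not pass (edgeR adjusted p = 0.0886), although only 0.341% of tested genes had a smaller p. Across the alternatives it was 1.01 to 1.33 with an adjusted p of 0.000306, by DESeq2, to 0.319. At d5 the acetate change was 0.24 ± 0.27 (edgeR adjusted p = 0.653), and it was -0.09 with d5 replicate 1 left out and 0.67 with d5 replicate 2 left out. CD4 helper T cells also make Il2. Summed markers of CD4 helper and regulatory T cells, mostly Zbtb7b and Ctla4, were 233 to 364 and 175 to 244 CPM in the d9 acetate and d9 libraries, and 233 to 266 and 179 to 181 CPM in the d5 acetate and d5 libraries. Of that list Cd40lg, the CD40 ligand gene of activated helper cells, averaged 5.57, 2.54, 7.23 and 10.46 CPM in those groups and fell at d9 without acetate (log2 -2.03; edgeR adjusted p = 0.00142). Cd4 averaged 0.769, 1.31, 0.436 and 0.282 CPM and rose in that comparison (log2 2.18, edgeR adjusted p = 0.00166). There 1 of the 6 tested genes of the list rose and 3 fell, where 15.9% and 21.2% of all tested genes did. The part of these cells in the Il2 level was not tested. In bulk RNA, fewer cells making a transcript and less transcript per cell cannot be told apart.

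Il21, which encodes the cytokine IL-21, had 3 counts in all 10 libraries together, against 20865 for Il2. The counts were 1 in replicates 2 and 3 of d9 with acetate and 1 in replicate 2 of d5 with acetate. All d9 and d5 libraries without acetate held 0, which allows up to 0.0435 CPM over the d9 group and 0.0851 CPM over the d5 group, a limit of 3 counts that covers counting error only. The 3 counts are under that limit in each group, so no difference with acetate was detectable at this depth. The gene lies on chromosome 3 (GRCm38, 37222759 to 37232636), 96.8 kb from Il2 (37120523 to 37125959), both on the minus strand. Of its exon bases, 8.92% are shared with the antisense gene Gm12534, which had 0 counts.

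Within 250 kb of Il2, the other genes with enough counts to test were 4932438A13Rik, Cetn4 and Bbs12. Bbs12, a gene of the chaperonin-like Bardet-Biedl syndrome family, averaged 2.24, 1.93, 4.67 and 4.34 CPM in the d9 acetate, d9, d5 acetate and d5 groups. It fell at d9 against d5, by 1.06 on the log2 scale with acetate (edgeR adjusted p = 0.00131) and by 1.17 without it (0.000902, same test). 4932438A13Rik averaged 21.01, 21.5, 51.8 and 59.9 CPM in those groups and also fell, by 1.30 with acetate (edgeR adjusted p = 0.00262) and by 1.48 without (0.00138, same test). Cetn4, a centrin gene, fell with acetate (log2 -0.63; edgeR adjusted p = 0.0398) and had a log2 change of -0.55 without it (0.0763, same test). Il2 and its tested neighbours thus all had lower means at d9, where 49.2% of all tested genes had a change above 0 in each acetate state. Of all tested genes, 21.2% were called lower without acetate and 23.1% with it. For acetate at d9 these neighbours had log2 changes of -0.03 to 0.22, beside 1.19 for Il2, and none passed.

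Of the 4 receptor chain genes, Il2rb and Il15ra rose at d9 against d5, while Il2ra and Il2rg did not pass. Il2rb, the signalling beta chain shared with IL-15, stood at 1005, 969.6 and 1357 CPM in the d9 acetate libraries, 888, 979 and 1019.8 CPM in the d9 libraries, 731 and 648 CPM in the d5 acetate libraries, and 545 and 458 CPM in the d5 libraries. All d9 libraries were above all d5 libraries, and at d5 both acetate libraries were above both without it. Against d5, Il2rb rose 1.92-fold at d9 without acetate (log2 0.94 ± 0.17; edgeR adjusted p = 0.00154) and 1.61-fold with it (log2 0.69 ± 0.17; edgeR adjusted p = 0.0074). The call with acetate was lost without d5 acetate replicate 2 (edgeR adjusted p = 0.0688, log2 0.61). For acetate at d5 the log2 change was 0.46 ± 0.18 (edgeR adjusted p = 0.196), and it passed in 2 of the 19 alternatives. These were the fit of only the libraries compared and the fit without the 2 d9 libraries that stood apart. They called 1701 and 2162 genes in all, against 201 in the reported fit. NK cells also express Il2rb, and the summed CPM of 8 NK cell markers was 2286 to 2911 in the d9 acetate and 1885 to 2983 in the d9 libraries, against 134 to 281 and 70.6 to 194 in the d5 acetate and d5 libraries. Nearly all of that sum was Gzma, which CD8 effector cells also make. Of the 8 markers, 5 could be tested, and 4 rose and 1 fell at d9 in each acetate state. The shares over all tested genes were 18.5% higher and 23.1% lower with acetate, and 15.9% and 21.2% without. Klri2, the one that fell, averaged 0.451, 0.132, 2.48 and 2.41 CPM in the d9 acetate, d9, d5 acetate and d5 groups. Klrb1c, which encodes the NK1.1 antigen, averaged 20.9, 10.9, 5.47 and 1.496 CPM in the d9 acetate, d9, d5 acetate and d5 groups, and was also called higher with acetate at d5 (3.64-fold; edgeR adjusted p = 0.0224), a call lost without d5 replicate 2 or either d5 acetate replicate. Eomes, a transcription factor of NK and CD8 T cells, averaged 34.1, 28.9, 3.88 and 5.61 CPM, and Fcer1g, a signalling adapter, 23.0, 22.5, 6.18 and 5.38 CPM. The defining NK gene Ncr1 averaged at most 0.16 CPM in any group. The part of NK cells in the Il2rb level was not tested.

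Il2ra, the alpha chain that gives high affinity, was at 1168, 788 and 1108 CPM in the d9 acetate libraries, 785, 1071 and 1040.2 CPM in the d9 libraries, 918 and 945 CPM in the d5 acetate libraries, and 1196 and 1347 CPM in the d5 libraries. Both d5 libraries without acetate lay above all the d9 libraries, with or without acetate, and above both d5 acetate libraries. The lowest values were those of the 2 d9 libraries that stood apart. On the full set no change of Il2ra passed: log2 -0.45 ± 0.20 for acetate at d5 (edgeR adjusted p = 0.253), -0.40 ± 0.18 for d9 against d5 without acetate (0.113), 0.13 ± 0.19 with acetate (0.59) and 0.08 ± 0.17 for acetate at d9 (0.871). Leaving out the 2 libraries that stood apart was chosen after seeing the data, and more genes of all kinds then passed. For acetate at d5 2162 did so, against 201 on the full set. For d9 against d5 5945 passed without acetate, against 4895, and 6658 with it, against 5480. In that setting Il2ra changed by -0.45 for acetate at d5 (edgeR adjusted p = 0.0123). For d9 against d5 it changed by -0.29 without acetate (0.0334) and 0.28 with it (0.0326). Foxp3, a gene of regulatory T cells that hold high Il2ra, averaged 0.0142, 0.0435, 0.109 and 0.0276 CPM in the d9 acetate, d9, d5 acetate and d5 groups.

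Il2rg, the common gamma chain, differed little between groups. It was at 418, 377 and 439.5 CPM in the d9 acetate libraries, 405, 469.6 and 485 CPM in the d9 libraries, 355 and 341 CPM in the d5 acetate libraries, and 375 and 398.5 CPM in the d5 libraries. Every d9 library lay above every d5 library of the same acetate state, by 0.24 ± 0.12 on the log2 scale with acetate (edgeR adjusted p = 0.127) and by 0.23 ± 0.12 without it (0.157, same test), neither past the threshold. Both passed without the 2 libraries that stood apart (edgeR adjusted p = 0.0168 and 0.0245), where 6658 and 5945 genes were called in all. Of its exon bases, 30.5% are shared with Gm20489 on the same strand, which had 0 counts, so its level is uncertain to the extent that shared reads were not assigned.

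Il15ra, the alpha chain that presents IL-15, lies 12.1 kb from Il2ra on chromosome 2. Its level was 24.5, 32.0 and 28.7 CPM in the d9 acetate libraries, 22.3, 25.2 and 26.4 CPM in the d9 libraries, 17.3 and 16.1 CPM in the d5 acetate libraries, and 15.1 and 14.6 CPM in the d5 libraries. The d9 and d5 libraries did not overlap. It rose 1.70-fold at d9 with acetate (log2 0.76 ± 0.15; edgeR adjusted p = 0.00225) and 1.66-fold without it (log2 0.73 ± 0.15; edgeR adjusted p = 0.00319), and both calls held in all 19 alternatives. Acetate changed it by 0.20 ± 0.13 at d9 and 0.17 ± 0.16 at d5 on the log2 scale, neither past the threshold (edgeR adjusted p = 0.485 and 0.575).

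Ratios of chains within a library do not depend on how libraries are scaled. Counts of Il2ra per kb over those of Il2rb per kb were 0.873, 0.61 and 0.613 in the d9 acetate libraries, 0.663, 0.822 and 0.766 in the d9 libraries, 0.943 and 1.09 in the d5 acetate libraries, and 1.65 and 2.21 in the d5 libraries. Alpha was below beta in every d9 library, near it in the d5 acetate libraries and above it in the d5 libraries without acetate. On the log2 scale the ratio was lower by 1.35 at d9 than at d5 without acetate and by 0.56 with it, and lower by 0.91 with acetate than without at d5. The exact permutation test, two-sided, gave p = 0.2, 0.2 and 0.3333 for these, each the smallest these group sizes allow, and adjusted p of 0.4 to 0.5 over the 12 ratio tests run. At d9 acetate and no acetate differed in this ratio by -0.12 (exact permutation p = 0.6). Il2rb over Il2rg was higher with acetate than without at d9, at 1.34, 1.43 and 1.72 against 1.22, 1.16 and 1.17 (exact permutation p = 0.1, the smallest possible, and 0.4 adjusted).

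**Figure D3:**
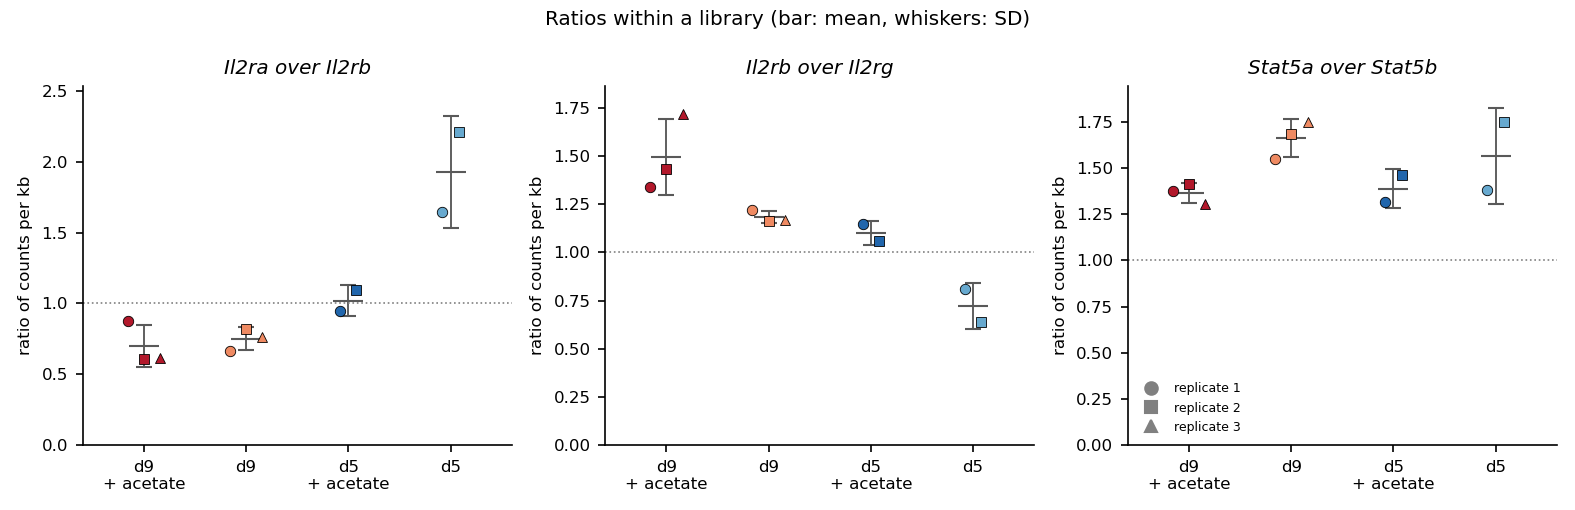
Ratio of counts per kb of exon for Il2ra over Il2rb, Il2rb over Il2rg and Stat5a over Stat5b in each library, by group, with the mean and SD; the dotted line marks equal levels per kb. Il2ra over Il2rb lies between 0.61 and 0.873 at d9 and reaches 2.21 at d5 without acetate.

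Jak3, the kinase bound to the gamma chain, was at 135, 108 and 187 CPM in the d9 acetate libraries, 108, 151 and 147 CPM in the d9 libraries, 99.7 and 90.7 CPM in the d5 acetate libraries, and 127 and 120 CPM in the d5 libraries. The d9 values spread widely in both acetate states, and the lowest were again in the 2 libraries that stood apart. Its rise at d9 with acetate was near the threshold (log2 0.59 ± 0.22; edgeR adjusted p = 0.048) and was called in 6 of 19 alternatives, with an adjusted p of 0.000861 without the 2 libraries that stood apart and up to 0.204 elsewhere. The change without acetate was 0.13 ± 0.21 (edgeR adjusted p = 0.657). At d5 both acetate libraries lay below both others, by 0.37 ± 0.23 on the log2 scale (edgeR adjusted p = 0.396). Of the exon bases of Jak3, 7.55% are shared with Insl3 on the same strand, which had 210 counts against 27131 for Jak3.

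Stat5a and Stat5b, the transcription factors that relay the signal, both rose at d9 against d5. Stat5a was at 561, 642 and 673 CPM in the d9 acetate libraries, 528, 635 and 646 CPM in the d9 libraries, 370.2 and 387 CPM in the d5 acetate libraries, and 296 and 406 CPM in the d5 libraries. Stat5b was at 316, 353 and 400.3 CPM in the d9 acetate libraries, 264, 293 and 287 CPM in the d9 libraries, 219 and 206 CPM in the d5 acetate libraries, and 167 and 180.2 CPM in the d5 libraries. For both genes every d9 library lay above every d5 library. Stat5a rose 1.65-fold at d9 with acetate (log2 0.72 ± 0.16; edgeR adjusted p = 0.00451) and 1.72-fold without it (log2 0.78 ± 0.16; edgeR adjusted p = 0.00329). Without d5 replicate 1 the call without acetate was lost (edgeR adjusted p = 0.0509). Stat5b rose 1.68-fold with acetate (log2 0.75 ± 0.12; edgeR adjusted p = 0.000899) and 1.62-fold without it (log2 0.70 ± 0.12; edgeR adjusted p = 0.00153), in all 19 alternatives.

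With acetate Stat5b was the higher on both days, though not past the threshold. Every acetate library lay above every library without acetate of the same day for Stat5b, with log2 changes of 0.34 ± 0.11 at d9 (edgeR adjusted p = 0.195) and 0.29 ± 0.13 at d5 (0.256, same test). Stat5a overlapped between acetate and no acetate on both days, with changes of 0.05 ± 0.14 and 0.11 ± 0.17. Stat5a over Stat5b per kb was 1.38, 1.41 and 1.30 in the d9 acetate libraries, against 1.55, 1.69 and 1.75 in the d9 libraries (exact permutation p = 0.1, the smallest possible, and 0.4 adjusted). The genes are close paralogs 8.6 kb apart on chromosome 11, and each value is uncertain, since reads shared by the pair may be assigned to either. Of the exon bases of Stat5a, 1.01% overlap Stat3 on the opposite strand. Whether counting used strand is not stated by any source used here.

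Cish, a STAT5 target whose SH2 domain protein damps the receptor, had the largest rise of the 9 genes at d9, with and without acetate. It was at 249.7, 258 and 387 CPM in the d9 acetate libraries, 181, 227 and 228 CPM in the d9 libraries, 83.8 and 77.1 CPM in the d5 acetate libraries, and 92.0 and 99.0 CPM in the d5 libraries. All d9 libraries lay above all d5 libraries. Cish rose 3.71-fold at d9 with acetate (log2 1.89 ± 0.20; edgeR adjusted p = 7.21e-05) and 2.22-fold without it (log2 1.15 ± 0.19; edgeR adjusted p = 0.00118), in all 19 alternatives. Acetate libraries lay above those without acetate at d9 and below them at d5. The log2 changes were 0.49 ± 0.17 at d9 (edgeR adjusted p = 0.212) and -0.25 ± 0.21 at d5 (0.531, same test). Without d9 acetate replicate 3 the change at d9 was 0.26 (edgeR adjusted p = 0.502), the lowest of the alternatives, which reached 0.61 (adjusted p 0.0726 to 0.502). Exons of Cish overlap Gm17040 and Gm17041 on the opposite strand, which had 61 and 4 counts against 41591 for Cish.

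Whether acetate acted differently on the 2 days was tested as the acetate change at d9 minus that at d5. None of the 9 genes passed, where 0% of all tested genes were called by edgeR. The estimates were largest for Il2, at 0.95 ± 0.36 (edgeR unadjusted p = 0.022, adjusted 0.544), and for Cish, at 0.74 ± 0.27 (edgeR unadjusted p = 0.0182, adjusted 0.527). At an unadjusted p under 0.05 the edgeR test gave those 2 of 9, where 7.7% of all tested genes did so, and DESeq2 called none of the 9, where it called 0.774%. Acetate and no acetate did not overlap at d9 for 3 of the 9, all higher (Il2, Stat5b and Cish), where 9.9% of all tested genes separated upward, 8.79% downward and 18.7% in all. At d5 they did not overlap for 3 higher and 4 lower genes, where 29.8% and 29.2% of all tested genes did so and 59% in all.

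Related genes of the axis were described from lists. Of 8 other JAK and STAT genes, 6 rose at d9 with acetate and 5 without it and none fell, where 18.5% and 15.9% of all tested genes rose. Tyk2, a Janus kinase, rose by 0.73 ± 0.13 with acetate and 0.78 ± 0.13 without on the log2 scale (edgeR adjusted p = 0.00134 and 0.00104). Stat2, known from type I interferon signalling, rose by 1.07 ± 0.17 and 0.66 ± 0.16 (edgeR adjusted p = 0.000627 and 0.00941). The list's median log2 change was 0.71 with and 0.60 without acetate, beside -0.01 over all tested genes in each. Acetate called none of the 8 on either day, and the smallest p was that of Stat4, a STAT known from interleukin-12 signalling. It averaged 28.8, 20.4, 35.4 and 23.9 CPM in the d9 acetate, d9, d5 acetate and d5 groups (log2 0.50 ± 0.12 at d9 and 0.57 ± 0.15 at d5; edgeR adjusted p = 0.134 and 0.0883).

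Of 11 other gamma chain cytokines and receptor chains, 4 had enough counts to be tested, and the cytokine genes Il4, Il7, Il9, Il15 and Tslp averaged at most 0.229 CPM in any group. Il7r, the IL-7 receptor alpha chain, averaged 2.66, 1.01, 11.4 and 9.92 CPM in the d9 acetate, d9, d5 acetate and d5 groups. It fell at d9 with acetate (log2 -2.10 ± 0.27; edgeR adjusted p = 0.000209) and without it (log2 -3.28 ± 0.30; edgeR adjusted p = 2.61e-05). Il21r, the receptor for IL-21, averaged 539, 459, 236 and 203 CPM in those groups and rose by 1.19 ± 0.17 with acetate and 1.17 ± 0.17 without (edgeR adjusted p = 0.000422 and 0.000508). The receptor gene was thus abundant where its ligand gene Il21 had at most 1 count per library. Il4ra, the IL-4 receptor alpha chain, rose by 1.37 ± 0.17 with acetate and 1.07 ± 0.17 without (edgeR adjusted p = 0.000159 and 0.000723).

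Among 28 genes known to be induced through IL-2 and STAT5, 18 rose and 2 fell at d9 with acetate, and 16 rose and 4 fell without it. Of all tested genes, 18.5% rose and 23.1% fell with acetate, and 15.9% rose and 21.2% fell without it. The list's median log2 change was 0.66 with and 0.65 without acetate, beside -0.01 over all tested genes in each. Gzmb, which encodes granzyme B, rose by 1.58 ± 0.19 with acetate and 2.05 ± 0.20 without (edgeR adjusted p = 0.000151 and 3.63e-05). The chemokine gene Xcl1 fell in both, by 1.93 ± 0.21 and 1.73 ± 0.21 (edgeR adjusted p = 8.79e-05 and 0.000164). With acetate at d5 3 of the 28 rose, Ifng, Gzmb and Lta, where 0.66% of all tested genes rose, and at d9 edgeR called none, with 26 of 28 changes above 0 and a median of 0.45, where 51% of all tested genes were above 0 and the median was 0.006. The 3 calls at d5 were lost without d5 replicate 2 and without either d5 acetate replicate. Of 11 tested genes known to be repressed through the same route, 5 rose and 3 fell at d9 with acetate, where 18.5% of all tested genes rose and 23.1% fell, and 3 rose and 3 fell without it, where 15.9% rose and 21.2% fell. Tcf7, a transcription factor of naive and memory T cells, rose by 1.97 ± 0.40 with acetate (edgeR adjusted p = 0.00331).

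The 18 feedback inhibitors were mixed, with 5 higher and 4 lower at d9 with acetate and 2 higher and 5 lower without. These shares lie near the 18.5% and 23.1% of all tested genes called higher and lower with acetate and the 15.9% and 21.2% without. Dusp5, a phosphatase of ERK kinases, rose by 2.48 ± 0.24 with acetate and 1.34 ± 0.23 without (edgeR adjusted p = 4.44e-05 and 0.0012). Ptprc, the CD45 phosphatase, fell by 1.15 ± 0.18 and 1.27 ± 0.18 (edgeR adjusted p = 0.000657 and 0.000403), and Ptpn2, a phosphatase that acts on JAK1 and JAK3, fell by 0.91 ± 0.12 with acetate (edgeR adjusted p = 0.000299). For acetate at d9 Socs3, a SOCS inhibitor related to Cish, averaged 2.50 against 1.15 CPM (log2 1.12 ± 0.25; edgeR adjusted p = 0.113). None of the 18 passed for acetate on either day.

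Regulators upstream of Il2 were counted in a list of 27 calcineurin, NFAT, AP-1, Rel and related genes. At d9 11 rose and 3 fell with acetate, and 2 rose and 7 fell without it, with median log2 changes of 0.64 and 0.07, beside -0.01 over all tested genes in each. Of all tested genes 18.5% rose and 23.1% fell with acetate, and 15.9% rose and 21.2% fell without. Batf, an AP-1 family factor, rose by 1.01 ± 0.13 with acetate and 1.55 ± 0.13 without (edgeR adjusted p = 0.000174 and 1.64e-05), and Ets1 fell by 1.24 ± 0.15 without acetate (edgeR adjusted p = 0.000134). With acetate at d5 Jun fell by 1.34 ± 0.18 (edgeR adjusted p = 0.0113) and Hmga1, an architectural chromatin protein, by 0.78 ± 0.11 (edgeR adjusted p = 0.0165), where 0.865% of all tested genes fell. Both calls were lost without d5 replicate 2 and without either d5 acetate replicate. Against d5, Jun rose at d9 with acetate, by 2.14 ± 0.17 (edgeR adjusted p = 1.47e-05), and its change without acetate was 0.42 ± 0.16 (edgeR adjusted p = 0.0618). Its acetate change at d9 minus that at d5 was 1.72 ± 0.23 and did not pass (edgeR adjusted p = 0.0648). Acetate at d9 called none of the 27, and Ets1 had a log2 change of 0.58 ± 0.13 (edgeR adjusted p = 0.121). Of 17 genes described as restraining Il2, 6 rose and 2 fell at d9 with acetate, and 4 rose and 5 fell without it, beside the same shares of all tested genes. Prdm1, which encodes the repressor BLIMP-1, rose by 2.33 ± 0.33 with acetate and 2.49 ± 0.34 without (edgeR adjusted p = 0.000364 and 0.000339). Ndrg1, linked to T cell anergy, rose by 1.86 ± 0.16 and 1.57 ± 0.16 (edgeR adjusted p = 2.2e-05 and 4.94e-05). Egr2 of the same list fell by 1.22 ± 0.21 without acetate (edgeR adjusted p = 0.00138).

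Below the receptor, 34 adapter, PI3K and MAPK genes were counted, with 11 higher and 3 lower at d9 with acetate and 9 higher and 4 lower without. Of all tested genes 18.5% were higher and 23.1% lower with acetate, and 15.9% higher and 21.2% lower without. Gab2, a scaffold of the PI3K arm, rose by 1.54 ± 0.22 with acetate and 1.01 ± 0.21 without (edgeR adjusted p = 0.000387 and 0.00427). The adapter gene Grb2 rose by 0.75 ± 0.10 with acetate (edgeR adjusted p = 0.000254), and the kinase gene Akt2 by 0.60 ± 0.10 without (edgeR adjusted p = 0.00102). With acetate at d5 1 of the 34 passed, Ptk2b, a kinase of the focal adhesion family, which fell by 0.67 ± 0.14 (edgeR adjusted p = 0.049), where 0.865% of all tested genes fell. That call too was lost when d5 replicate 2 or either d5 acetate replicate was left out.

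**Figure D4:**
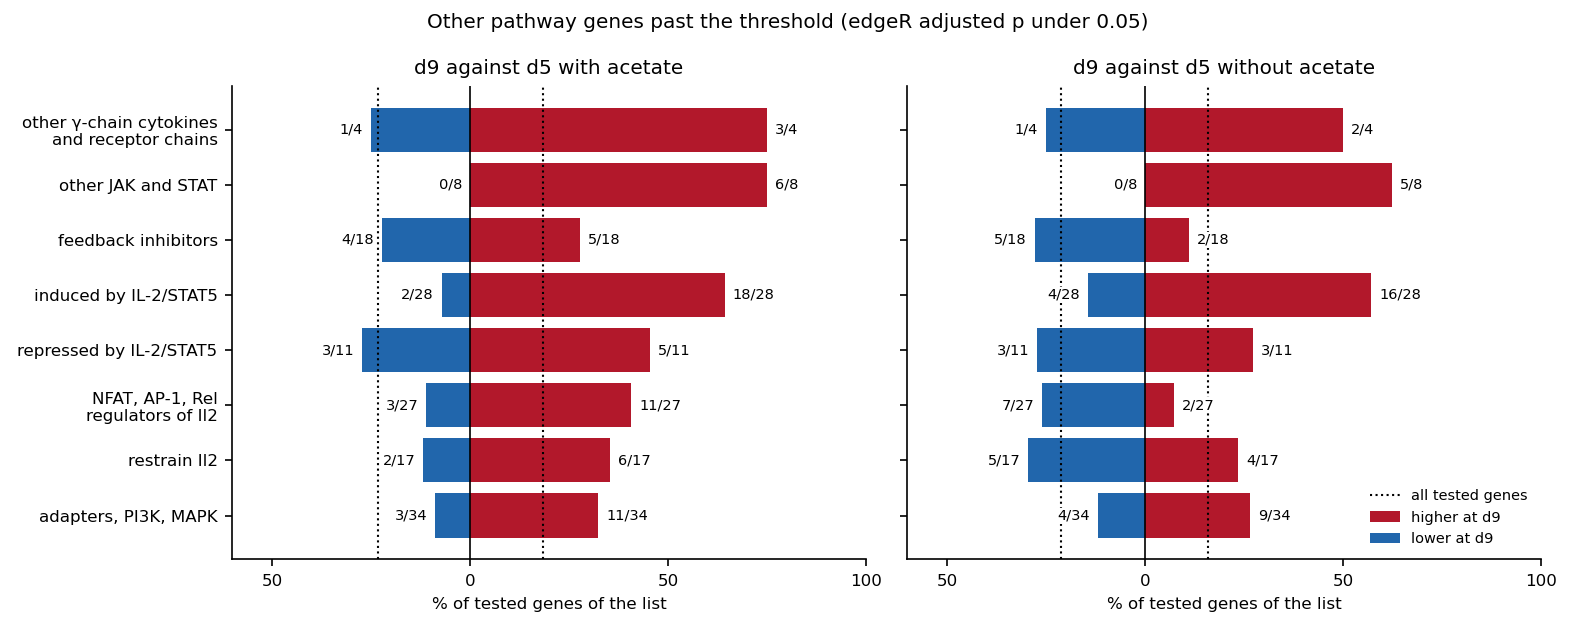
Share of the tested genes of each list past the threshold at d9 against d5, higher to the right and lower to the left, with acetate (left panel) and without (right panel), with counts beside the bars. Dotted lines mark the shares over all tested genes, 18.5% higher and 23.1% lower with acetate and 15.9% and 21.2% without. The other JAK and STAT genes have no bar to the left in either panel.

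The genes whose pattern over the 10 libraries lay nearest to Il2, by the root mean square difference of log2 CPM after each gene was centred and divided by its SD, were Slc25a13 (0.155), Sms (0.173) and Atl2 (0.199), out of 9791 protein-coding candidates. Sms, which encodes spermine synthase, averaged 61.7, 50.6, 93.2 and 83.5 CPM in the d9 acetate, d9, d5 acetate and d5 groups. Nearest to Il2ra were Lrch3 (0.219), Hspb6 (0.226) and Slc38a2 (0.247). Slc38a2, an amino acid transporter gene, averaged 224, 218, 215 and 292 CPM in the same groups. No such gene was sought for Il21, whose counts were too few.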

How the data were processed

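Polyadenylated RNA was sequenced from stranded mRNA libraries (Illumina), per the labels' protocols. The authors deposited raw counts per gene, 1 file per sample. STAR, featureCounts, deepTools, DESeq2 and GRCm38 are named in the submitters' processing notes, and no version or role is given there, nor whether counting used strand. Of 53465 gene identifiers, 53360 matched GENCODE M21 (GRCm38).

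Counts were scaled by TMM, filtered with filterByExpr by group to 13182 genes and fitted as 4 group means with edgeR 4.0.16 (quasi-likelihood, robust, 6 residual degrees of freedom) in R 4.3.3. p-values were adjusted by Benjamini-Hochberg over all tested genes. SE is the absolute log2 fold change over the square root of F. Depth was 16.59 to 24.66 M counts per library. The code was run on counts simulated with the same spread for every gene and independent libraries, which says nothing of libraries that stand apart. Alternatives were size factors of DESeq2, plain library sizes, no filter, 2 CPM in 2 samples, DESeq2 1.42.0, limma-voom (limma 3.58.1), only the libraries compared, a replicate block, each library left out, and, chosen after seeing the data, 2 d9 libraries left out.

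The genes, lists and tests were chosen with earlier results of these data known. All 10 genes were named. Of each list, up to 3 genes with the smallest p past the threshold were taken per comparison, or the 2 with the smallest p where none passed, and not all are printed. Genes within 250 kb of Il2 and the 3 nearest in pattern to Il2 and Il2ra were also named. Summed monocyte and neutrophil markers were 4.68 to 12.4 CPM over the libraries, with S100a8 at 0.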

Additional observations from a re-analysis of the deposited data

Results flagged for a closer look

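For Cish, every acetate library lay above every library without acetate at d9, and below every one at d5. The difference between the acetate changes, d9 minus d5, was 0.74 ± 0.27 on the log2 scale and did not pass (edgeR adjusted p = 0.527, unadjusted p = 0.0182). Of all tested genes, 9.9% separated upward at d9 and 29.2% downward at d5. Over 18 alternatives the difference was 0.51 to 0.85.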

How the results depend on the processing

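Over 19 alternatives, 18 for the difference of the acetate changes, no call of the 9 genes reversed. By count of genes called, acetate at d9 gave 4 in the reported fit, 197 without the low-count filter, 335 with DESeq2, 213 without the 2 d9 libraries that stand apart, and 0 to 18 with each library left out (0 without d9 replicate 3, 18 without d9 replicate 1). Acetate at d5 gave 201, then 578, 786, 2162 and 0 to 498 in the same settings (0 without d5 replicate 2 or either d5 acetate replicate, 10 without d5 replicate 1, 498 without d9 replicate 1), and 1701 with only the libraries compared. The difference gave 0, then 99, 102, 255 and 0 to 1. With each library left out, d9 against d5 gave 3108 to 6048 with acetate (lowest without d5 acetate replicate 1) and 2803 to 5425 without it (lowest without d5 replicate 2). The cause of these shifts was not tested.

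Of the 9 genes, DESeq2 called 1 for acetate at d9 (Il2). For acetate at d5, 3 were called with only the libraries compared (Il2ra, Il2rb and Jak3), where 1701 genes were called in all. There were 2 without the libraries that stand apart (Il2ra and Il2rb), where 2162 genes were called in all, against 201 in the reported fit. With each library left out, d9 against d5 called 5 to 8 with acetate and 5 to 6 without, and the acetate comparisons and their difference called 0. Scaling by library size alone shifted the median of all genes by -0.10 for d9 against d5, with and without acetate.

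No label used here says that replicate numbers pair the libraries. Same-numbered libraries had correlations of deviations from their group means of -0.39 to 0.33 between acetate states within a day. Between days these were 0.113 to 0.221. With groups of 2 or 3 libraries, such values cannot settle whether libraries were paired. A fit with replicate number as a block called 62 genes for acetate at d5, called none of the 9 for acetate on either day, and lost Jak3 for d9 against d5 with acetate (log2 0.43, edgeR adjusted p = 0.125). The d5 groups of 2 libraries limit what acetate at d5 can show, and Il21 lies under the detection limit.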
